A study of Mus musculus with 4 samples.

Results

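The 51 genes described here encode transcription factors that build tissues other than the dorsal telencephalon: heart, blood, limb and skeleton, muscle, gut and pancreas, kidney, eye, and the midbrain, hindbrain and spinal cord. They are listed members of the GATA, T-box, bHLH, NK homeobox, PAX, sine oculis, Iroquois, PITX, ParaHox, Engrailed, LIM, ALX and BAR families, taken by name from the 21938 protein-coding genes of the annotation, and all 51 names were found. For each gene, a promoter peak was an ATAC-seq peak whose summit lay within 2 kb of an annotated transcription start site (TSS) of that gene, and the locus was the gene body with 20 kb on either side.

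ATAC-seq uses Tn5 transposase, which cuts and tags DNA where chromatin is open, and piles of sequenced fragments (peaks) mark accessible sites. Hippocampi were dissected from mice at postnatal day 0 (P0), and 2 cKO libraries (genotype Kdm2bEmx1-delta-CxxC) and 2 Ctrl libraries (genotype Kdm2bfl/+ or Kdm2bfl/fl) each gave 1 list of peaks. The libraries are named Ctrl 1, Ctrl 2, cKO 1 and cKO 2 by group and replicate number. In cKO mice, Emx1-Cre deletes the Kdm2b exon for the CxxC zinc finger, the domain by which KDM2B is held at CpG islands. The floxed allele is carried by the Ctrl animals too, with no Cre named in their genotype, and the labels do not say how many floxed alleles each Ctrl library has. Peak names inside the Ctrl lists carry different strings, Kf-+ in Ctrl 1 and Kf-f in Ctrl 2, whose meaning is not given in the sources used here, so the Ctrl libraries may differ in genotype. Emx1-Cre acts in the dorsal telencephalon, so interneurons, vessels, blood cells and meninges in the dissected tissue keep the intact gene. Titles and protocol name hippocampus whereas the source field names neural progenitor cells, and the text follows the former. Nothing in the labels says that replicates are separate animals, so a p-value here measures the spread between these libraries, which may be technical.

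CpG islands are stretches of unmethylated, CpG-rich DNA at many promoters. Where a developmental gene is silent, its island is typically held by Polycomb complexes, which ubiquitinate histone H2A (PRC1) and methylate histone H3 at lysine 27 (PRC2). KDM2B brings a variant PRC1 to such islands through its CxxC zinc finger. Polycomb marks were not measured in these libraries, so the genes are grouped only by their names and their sequence. In bulk tissue, an open promoter in fewer cells and a less open promoter in all cells cannot be told apart.

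The 4 lists differed in length. From Ctrl 1, Ctrl 2, cKO 1 and cKO 2 came 46389, 7037, 21404 and 44535 peaks, from an estimated 14.6, 29.6, 19.4 and 17.1 M fragments (M, mega) in the same order. These fragment totals were derived from the peak lists alone and were not checked against reads. In Ctrl 2, 60.5% of peaks lay in repeat-masked sequence, against 5.37% to 14.7% in the other 3 lists. Of 20 transcription factors of the dorsal telencephalon, which mark the labelled tissue, 18 had a promoter peak in Ctrl 1, 13 in cKO 1, 19 in cKO 2 and 0 in Ctrl 2. A gene with no peak in Ctrl 2 is thus not shown to be closed there, and values are given with and without that library.

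The genes were listed as CpG-rich regulators, so the island and CpG values given here describe that choice and are not a finding. A computed CpG island overlapped a promoter of 46 of the 51 genes, and the exceptions were Tbx5, Tbx6, Pax4, Myf5 and Myog. The islands of these 46 genes summed to a median of 1234 bp per gene, against 673 bp over CpG island genes, the 12643 protein-coding genes whose promoters hold such an island, and 13 of the 46 (28.3%) had 2 or more islands against 8.46% of CpG island genes. RefSeq promoters (GRCm38.p6, 250 bp before to 50 bp after a gene's start) were matched for 33 of the 51 genes, and these 38 promoters held a median of 20 CpG dinucleotides, against 7 over all 32851 promoters. With both strands searched, GGGCGG, the core of the GC box, occurred in 24 of the 38 (63.2%) against 35.7% of all promoters. CAGCTG, a form of the E-box bound by bHLH factors, occurred in 9 of the 38 (23.7%) against 16.3%. AGATAA, a form of the GATA site, occurred in 6 (15.8%) against 11.2%. TATAAA, the core of the TATA box, occurred in 3 (7.89%) against 13.6%. A match is a description of letters and not a binding site. GGGCGG itself holds a CpG, and the background is all promoters and not CpG-rich ones. The motif shares are thus not separated from CpG content.

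The next 3 sequences come from the promoters of Nkx6-2, Tbx1 and Pax1. They are shown because these genes had no peak in any list in the whole locus although each has over 1000 bp of promoter island, and they were chosen after these values were seen, as the largest promoter islands among genes with no locus peak whose window holds no annotated UTR. Each is the RefSeq promoter (GRCm38.p6) up to the base before the gene's RefSeq start, 5′ to 3′ on the gene's strand, with CpG in capitals. Nkx6-2 is at chr7:139582798-139583047 (minus strand, 26 CpG in 250 bp), Tbx1 at chr16:18588900-18589149 (minus strand, 17 CpG) and Pax1 at chr2:147364744-147364993 (plus strand, 10 CpG).
Nkx6-2: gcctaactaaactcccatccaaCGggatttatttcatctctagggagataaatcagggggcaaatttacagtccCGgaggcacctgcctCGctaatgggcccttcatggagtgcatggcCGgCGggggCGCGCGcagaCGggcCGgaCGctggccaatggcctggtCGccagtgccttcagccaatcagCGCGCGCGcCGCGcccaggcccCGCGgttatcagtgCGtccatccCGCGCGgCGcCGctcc
Tbx1: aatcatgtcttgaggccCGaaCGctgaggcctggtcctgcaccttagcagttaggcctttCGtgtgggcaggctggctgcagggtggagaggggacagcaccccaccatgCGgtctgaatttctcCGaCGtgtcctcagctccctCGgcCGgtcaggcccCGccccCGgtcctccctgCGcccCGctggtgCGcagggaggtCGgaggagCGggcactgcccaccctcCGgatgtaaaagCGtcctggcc
Pax1: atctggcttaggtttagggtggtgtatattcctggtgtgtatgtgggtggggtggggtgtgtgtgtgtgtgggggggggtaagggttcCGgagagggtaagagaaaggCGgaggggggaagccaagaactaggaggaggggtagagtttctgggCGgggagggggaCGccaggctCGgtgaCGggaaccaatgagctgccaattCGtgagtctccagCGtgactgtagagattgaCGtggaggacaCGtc
Nkx6-2 is a homeodomain factor of the ventral neural tube and oligodendrocytes, Tbx1 a T-box factor of the pharyngeal arches and Pax1 a paired factor of the sclerotome. The promoter islands sum to 2694 bp for Nkx6-2, 2521 bp for Tbx1 and 1498 bp for Pax1, but of the printed 250 bp only 131 bp of Nkx6-2, 140 bp of Tbx1 and 96 bp of Pax1 lie in an island.

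For comparison, the DNA under the promoter peaks of Irx5, Tbx3 and Gata3, which with Gata6 had the highest mean promoter percentiles, is shown in the same way (mm10). For Irx5 (chr8:92355990-92356289, plus strand) and Gata3 (chr2:9879546-9879845, minus strand) it is the 300 bp around the summit in Ctrl 1. For Tbx3 (chr5:119670466-119670668, plus strand) it is the 203 bp of the cKO 2 peak that lie before the annotated 5′ UTR. The Tbx3 summit in that library lies within the UTR and is not printed.
Irx5: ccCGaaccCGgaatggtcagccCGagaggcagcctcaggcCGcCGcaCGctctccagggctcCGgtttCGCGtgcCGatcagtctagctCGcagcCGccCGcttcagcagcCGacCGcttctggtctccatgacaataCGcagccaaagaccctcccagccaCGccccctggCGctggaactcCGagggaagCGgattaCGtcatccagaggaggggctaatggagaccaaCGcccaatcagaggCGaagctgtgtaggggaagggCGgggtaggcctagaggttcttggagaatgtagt
Tbx3: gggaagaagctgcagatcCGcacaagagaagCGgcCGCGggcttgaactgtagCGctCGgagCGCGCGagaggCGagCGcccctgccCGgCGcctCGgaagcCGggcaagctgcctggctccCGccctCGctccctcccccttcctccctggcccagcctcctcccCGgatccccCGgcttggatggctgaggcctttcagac
Gata3: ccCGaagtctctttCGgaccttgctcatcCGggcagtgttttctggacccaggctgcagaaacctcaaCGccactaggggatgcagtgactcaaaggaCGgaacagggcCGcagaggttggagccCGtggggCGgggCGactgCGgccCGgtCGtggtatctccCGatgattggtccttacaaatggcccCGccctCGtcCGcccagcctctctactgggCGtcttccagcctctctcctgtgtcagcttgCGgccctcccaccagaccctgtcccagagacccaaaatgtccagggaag
The Irx5 stretch holds 24 CpG and lies wholly in a computed island, as does that of Tbx3 with 19 CpG, whereas the Gata3 stretch holds 18 CpG and lies outside the computed islands. The Irx5 stretch also overlaps an exon of Crnde, a long noncoding RNA gene that starts beside Irx5.

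The question put to these genes was whether their promoters open when KDM2B can no longer bind CpG islands. The promoters of most of them had no peak in either genotype. A promoter peak was present for 11 of 51 genes in Ctrl 1 (21.6%, 95% Wilson interval 12.5 to 34.6%), 0 in Ctrl 2, 2 in cKO 1 (3.92%, 1.08 to 13.2%) and 12 in cKO 2 (23.5%, 14 to 36.8%). The background over all protein-coding genes was 58% in Ctrl 1, 8.27% in Ctrl 2, 40.3% in cKO 1 and 55.9% in cKO 2. Over CpG island genes it was 87.2%, 13.5%, 63.4% and 84.9% in the same order. In each library the share was below both backgrounds, and the difference from CpG island genes averaged −50.0 percentage points over the 4 libraries. Intervals cover counting error only, and an absent peak means that a promoter did not pass the threshold of that list.

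**Figure D1:**
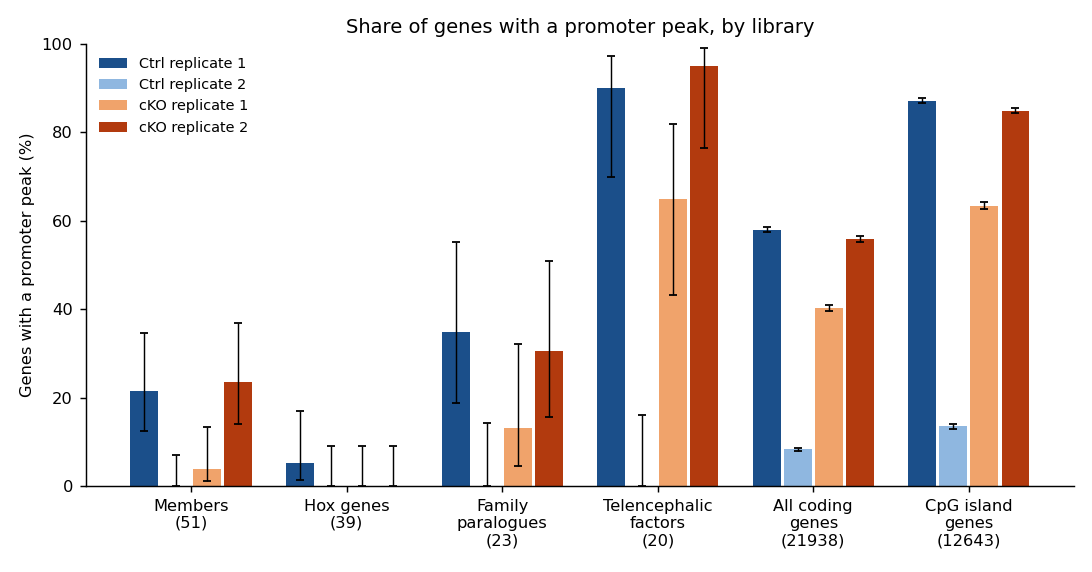
Share of genes with a promoter peak (percent, bars) in each of the 4 libraries for the 51 developmental transcription factors (Members), 39 Hox genes, 23 paralogues of the same families outside the telencephalic list, 20 telencephalic factors, all protein-coding genes and CpG island genes, with 95% Wilson intervals (error bars). Members reach at most 23.5%, while CpG island genes reach 87.2% in Ctrl 1.

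The group means were 7 ± 7.07 genes with a promoter peak in cKO (SD, n = 2) and 5.5 ± 7.78 in Ctrl (n = 2). The difference of 1.5 genes was smaller than the SD of either group, and it was −4 without Ctrl 2 and −3.5 without cKO 2. As a percentile among protein-coding genes of the same library (0 where there is no promoter peak), the mean over the 51 genes was 11.4 in Ctrl 1, 0 in Ctrl 2, 2.89 in cKO 1 and 12.9 in cKO 2. The same mean over all protein-coding genes was 41.2, 7.93, 32.1 and 40.3. The group means of the 51 genes were 7.88 ± 7.05 in cKO and 5.70 ± 8.06 in Ctrl (SD, n = 2 each), and the difference of 2.18 was −3.52 without Ctrl 2, −2.81 without cKO 2 and −6.19 when genes with no peak share the middle of their ranks (mid-ranks) in place of 0. Ctrl 1 and cKO 2, the libraries with the longest lists, had nearly the same genes, since all 11 of the former were among the 12 of the latter.

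By tissue, a promoter peak in at least 1 list was found for 1 of 11 heart genes (Gata6), 1 of 3 blood and vessel genes (Gata3), 2 of 9 limb and skeleton genes (Tbx3, Pax9), 3 of 7 genes of muscle and paraxial mesoderm (Six4, Myf5, Tbx6), 1 of 6 gut and pancreas genes (Nkx6-1), 2 of 4 genes of midbrain, hindbrain and spinal cord (En2, Isl1) and 2 of 6 Iroquois genes (Irx2, Irx5). None was found for the 3 kidney and thyroid genes (Pax2, Pax8, Six2) or the 2 eye genes (Six6, Pitx3). In all, 39 of 51 genes (76.5%) had no promoter peak in any list, 1 (Tbx6) had a peak in 1 list, 9 in 2 lists, 2 in 3 lists and 0 in all 4. Of the 21938 protein-coding genes, 8742 (39.85%) had none in any list. A further 1278 had a peak in 1 list, 3164 in 2, 6994 in 3 and 1760 in all 4. The 39 genes are Gata2, Gata4, Gata5, Tbx1, Tbx2, Tbx4, Tbx5, Tbx15, Tbx18, Tbx20, Hand1, Hand2, Nkx2-5, Nkx3-2, Nkx6-2, Pax1, Pax2, Pax3, Pax4, Pax5, Pax7, Pax8, Six2, Six6, Irx1, Irx3, Irx4, Irx6, Pitx1, Pitx3, Myod1, Myog, Pdx1, Cdx1, Cdx2, En1, Alx1, Alx4 and Barx1. Among the 46 genes with a promoter island, 36 (78.3%) had no promoter peak in any list, against 10.6% of CpG island genes and 79.6% of genes without an island.

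Irx5 (chr8:92357625-92376286, plus strand), an Iroquois homeodomain factor, had the strongest promoter peak of the group. Its percentile was 90.0 in Ctrl 1, 82.8 in cKO 1 and 86.4 in cKO 2, on 75, 28 and 61 fragments at the summit, and 0 in Ctrl 2. The 3 summits lay 1485, 1598 and 1434 bp upstream of the nearest Irx5 TSS but only 309, 196 and 360 bp from a TSS of Crnde, and all were inside an island of 5129 bp. With promoters of 1 kb, or with peaks nearer to another gene left out, Irx5 had no promoter peak in any list. The peak is therefore assigned to Irx5 by the 2 kb rule alone.

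Gata6, a zinc-finger factor of heart and endoderm, was the only gene of the 51 whose percentile was higher in both cKO libraries than in both Ctrl libraries. It was at 42.8 in Ctrl 1 and 0 in Ctrl 2, and at 64.6 in cKO 1 and 59.4 in cKO 2. The cKO mean was 62.0 ± 3.71 and the Ctrl mean 21.4 ± 30.2 (SD, n = 2 each), a difference of 40.7 (exact permutation test over libraries, two-sided, p = 0.3333, the smallest p that 2 against 2 allows; Benjamini-Hochberg adjusted p = 1 over 13196 genes). The difference was 19.3 without Ctrl 2, and 17.9 with mid-ranks. Its peaks rested on 10 fragments in Ctrl 1, 13 in cKO 1 and 22 in cKO 2, with summits 73 bp upstream and 123 and 65 bp downstream of the TSS. Divided by the mean depth of each library (scaled depth), these were 6.17-fold, 6.27-fold and 12.2-fold, so cKO 1 and Ctrl 1 were close in depth while their percentiles differed. A gene with any peak had a percentile of at least 59.8 in cKO 1 but at least 42.0 in Ctrl 1, because fewer genes had a peak in cKO 1. With a −log10 q-value of at least 5, the Gata6 peak was kept in cKO 2 only, and in equal-size lists (the 7037 strongest peaks of each list) in no library.

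Gata6 was 1 of the 12 members with a promoter peak in some list, the only ones that could be tested. Over all 13196 genes tested, 20.5% ranked higher in both cKO libraries and 2.8% ranked lower. At most 2 members could rank higher in both, since only Gata6 and Irx5 had a peak in cKO 1, and none could rank lower while Ctrl 2 was kept, since all 12 were at 0 there. The counts are therefore not read against the background. Without cKO 1, 10 of 12 were higher, against 44.8% of the 13196 genes, and without cKO 2, 1 was higher, against 33.5%. All 12 had a peak in cKO 2, the only cKO library left when cKO 1 is dropped. A gene with a peak was at least at 44.1 in cKO 2 but at least at 42.0 in Ctrl 1. The count of 10 is therefore not read as opening in cKO. Without Ctrl 1, the 2 with a peak in both cKO lists were higher, against 55.8%. Without Ctrl 2, 1 was higher, against 23.8%, and 2 lower, against 36.6%. In a design of 2 against 2 no gene of the 13196 could reach p under 0.05, and 0 did. Irx5 differed by 39.6 (exact permutation p = 1), which was −5.44 without Ctrl 2 and 16.7 with mid-ranks, and its percentile in Ctrl 1 was above both cKO values. Tbx6, a T-box factor of presomitic mesoderm, had a promoter peak in cKO 2 only, and in no list with a −log10 q-value of at least 5.

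The other 9 genes had a promoter peak in Ctrl 1 and in cKO 2 and in neither of the remaining lists. Their differences between cKO and Ctrl ranged from −2.81 to 2.01 percentile points, each with an exact permutation p of 1. Tbx3, a T-box repressor that acts in limb and mammary gland, was at percentile 57.2 in Ctrl 1 and 57.7 in cKO 2, on 21 and 20 fragments. Gata3, which directs T lymphocyte development, was at 57.9 and 52.2, on 25 and 17 fragments, with summits 1096 and 1010 bp upstream of a TSS. With promoters of 1 kb, Gata3 had no promoter peak in any list.

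Irx2, another Iroquois gene, was at 53.9 in Ctrl 1 and 54.9 in cKO 2, with the noncoding gene Gm20554 starting 131 and 183 bp from the summits. Pax9, which acts in teeth and sclerotome, was at 49.6 and 52.5 with 16 fragments in each library. Both genes thus stood at nearly equal rank in a Ctrl and a cKO library.

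En2, a factor of the midbrain-hindbrain boundary, was at 47.9 and 49.5 on 14 and 13 fragments, with summits 94 and 97 bp upstream of its TSS. Isl1, a LIM factor of motor neurons and heart precursors, was at 47.5 and 50.0 on 13 and 14 fragments. Nkx6-1, which acts in beta cells and ventral spinal cord, was at 46.8 and 50.1 on 12 and 14 fragments. Between 26.8% and 32.1% of the peaks of a list ranked at or below these peaks, and a gene with a peak could not fall below percentile 42.0 in Ctrl 1 or 44.1 in cKO 2.

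Six4, a factor of myogenic precursors, and Myf5, a bHLH factor that starts the muscle program, were both at 44.0 in Ctrl 1 on 10 fragments and at 48.0 in cKO 2 on 12. Their fold and p-value were the same in each list. Six4 summits lay 7 bp upstream and 68 bp downstream of the TSS, whereas those of Myf5, which has no promoter island, lay 1041 and 1071 bp downstream of the TSS. Neither gene kept a promoter peak with a −log10 q-value of at least 5, nor did Myf5 with promoters of 1 kb.

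**Figure D2:**
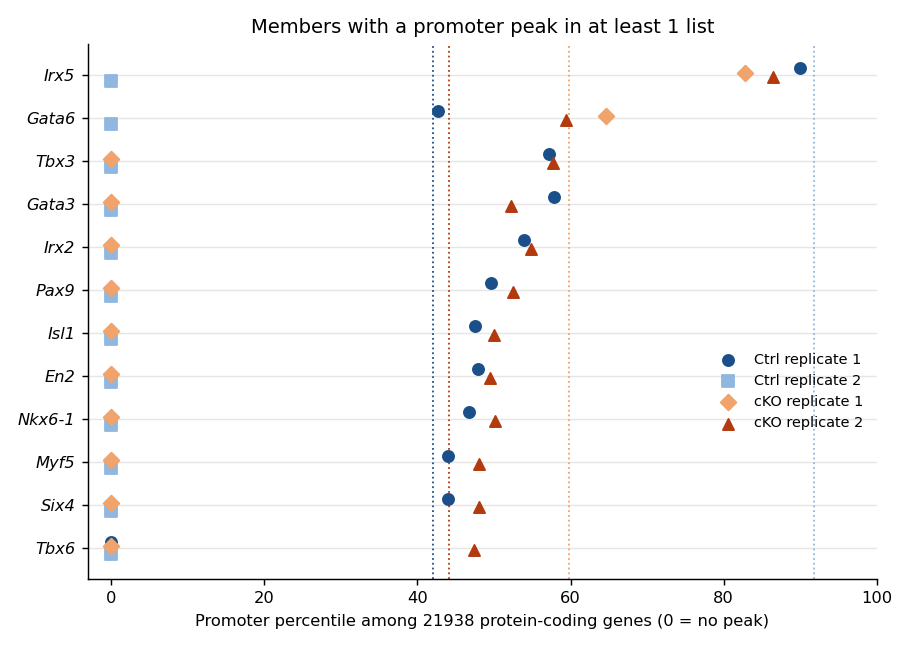
Promoter percentile (horizontal axis, 0 to 100, with 0 for no peak) of the 12 genes that had a promoter peak in some list, with 1 symbol per library, and dotted lines at the floor for a gene with a peak in each library. All 12 are at 0 in Ctrl 2, and only Irx5 and Gata6 are above 0 in cKO 1.

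Where a promoter peak was present in Ctrl 1 or cKO 2, it was mostly shallower than those of CpG island genes. The strongest promoter peaks of CpG island genes had a median of 41 fragments at the summit in Ctrl 1 and 39 in cKO 2, against 14 and 16.5 for the members. In cKO 1, with 2 member peaks, the medians were 24 fragments for CpG island genes and 20.5 for the members. Of the 11 member peaks in Ctrl 1, 10 ranked below the median CpG island gene with a peak, as did 11 of 12 in cKO 2 and 1 of 2 in cKO 1. Irx5 was the exception in each. Median width was 386 bp against 700 bp in Ctrl 1 and 382 bp against 655 bp in cKO 2, but 622.5 bp against 486 bp in cKO 1. These are peaks that passed the threshold of a list, so their depth says nothing of the genes without a peak.

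**Figure D3:**
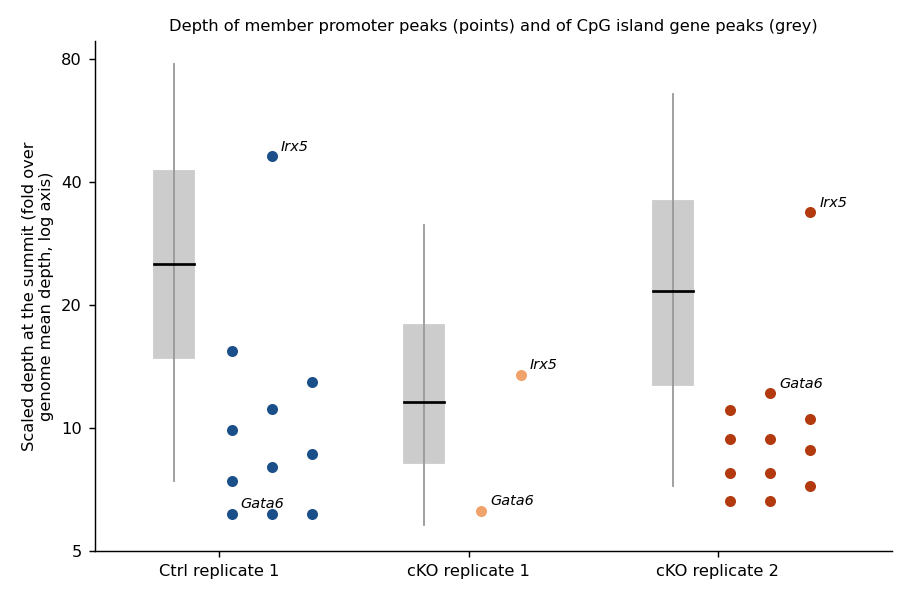
Scaled depth at the summit (vertical log axis, fold over the genome mean of the library) of member promoter peaks (points) in the 3 libraries that have any, beside the peaks of CpG island genes (grey box, quartiles; black line, median; grey line, the range from the 5% to the 95% quantile). Irx5 is the only gene above the grey median, at 46.2-fold in Ctrl 1, and Gata6 lies at 6.17-fold, 6.27-fold and 12.2-fold.

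The islands themselves were largely outside peaks. Peaks covered 4.80% of the 63645 bp of member islands in Ctrl 1, 0% in Ctrl 2, 1.20% in cKO 1 and 3.77% in cKO 2. For CpG island genes the figures were 56.9%, 4.75%, 32.2% and 53.7%. The cKO minus Ctrl difference for members was 0.0833 percentage points, against an SD between replicates of 2.72, and it was −2.32 without Ctrl 2 and −1.20 without cKO 2. In Ctrl 1, 6 of the 10 island genes with a peak had its summit inside an island (Tbx3, Nkx6-1, Irx2, Irx5, En2, Isl1), a share of 60.0% against 83.1% of CpG island genes with a peak. In cKO 2 it was again 6 of 10, against 82.2%.

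The share of members with a peak was below that of CpG island genes at each island length. Among CpG island genes with 1000 to 1999 bp of promoter island, 89.7% had a promoter peak in Ctrl 1 and 88.4% in cKO 2, against 5 of 20 members of that length in each library. With 500 to 999 bp it was 89.8% and 88.0%, against 2 of 10 members in each. Under 500 bp, 0 of 7 members had a promoter peak, against 81.6% in Ctrl 1 and 78.4% in cKO 2, and with 2000 to 2999 bp it was 1 of 6 in each library, against 83.6% and 79.6%. Of the 3 members with 3000 bp or more, 2 (Irx2 and Irx5) had a promoter peak in Ctrl 1 and cKO 2, against 90.5% and 84.5% of CpG island genes of that length, and the other, Gata2, had none in any list.

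**Figure D4:**
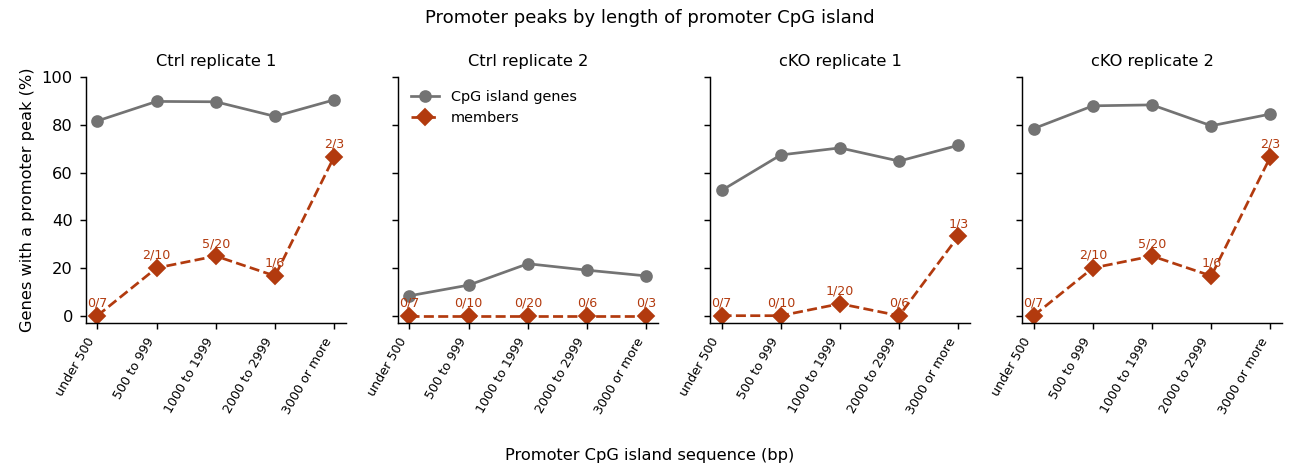
Share of genes with a promoter peak (vertical axis, percent) by summed length of promoter CpG island (horizontal axis, bp) in each library, for CpG island genes (grey) and for the 46 members with an island (red, with members with a peak over members in that class). Members lie below the CpG island genes in every class and library, with 5 of 20 against 89.7% in the class of 1000 to 1999 bp in Ctrl 1.

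Related genes that act in the telencephalon were set beside the members. Pax6, a PAX factor of radial glia, was at percentile 87.3 in Ctrl 1, 0 in Ctrl 2, 91.3 in cKO 1 and 81.5 in cKO 2, whereas 7 of the 8 PAX members had no promoter peak in any list, the exception being Pax9. Tbr1, a T-box factor of glutamatergic neurons, was at 66.6, 0, 73.8 and 68.4 in the same order. Eomes, the T-box factor of intermediate progenitors, was at 44.0, 0, 0 and 47.3. Six3, a factor of the anterior forebrain, was at 50.4, 0, 0 and 51.1. Of the 23 paralogues outside the telencephalic list, 8 had a promoter peak in Ctrl 1, 0 in Ctrl 2, 3 in cKO 1 and 7 in cKO 2. Of 39 Hox genes, another set of regulators with CpG-rich promoters, 2 had a promoter peak in Ctrl 1 and 0 in the other 3 lists.

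Markers of other cells in the dissection were examined because several members act in vessels, blood, mural cells or other brain regions. Of 5 endothelial genes, 1 had a promoter peak in Ctrl 1 and cKO 1 and 0 in the other lists, from Kdr alone, while Cldn5, Pecam1, Cdh5 and Tek had none. Of 6 blood and microglia genes, 2 had a peak in Ctrl 1 (Tal1 and Runx1) and 0 elsewhere, and Gata1, Spi1, Cx3cr1 and Csf1r had none in any list. Of 8 mural and meningeal genes the counts were 4, 0, 1 and 3, with Foxc1 highest at 63.5 in Ctrl 1. Choroid plexus genes had a promoter peak for 2 of 4 (Ttr and Foxj1) in each list other than Ctrl 2. Interneuron genes counted 5, 0, 1 and 2 of 8, and thalamic and midbrain genes 1, 0, 0 and 1 of 4, from Tcf7l2. The mean percentile over the genes of each marker list, in the order Ctrl 1, Ctrl 2, cKO 1, cKO 2, was 11.0, 0, 12.2 and 0 for endothelium (from Kdr alone), 25.9, 0, 7.80 and 18.9 for mural cells and meninges, 16.5, 0, 0 and 0 for blood and microglia, 28.5, 0, 31.8 and 31.2 for choroid plexus, 29.3, 0, 7.85 and 11.8 for interneurons and 14.5, 0, 0 and 14.8 for thalamus and midbrain. The part of these cells in the member peaks was not tested.

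Beyond promoters, the loci of the 51 genes form 50 separate windows of 3.34 Mb in all, since the windows of Pdx1 and Cdx2 overlap. They held 47 peaks in Ctrl 1, 2 in Ctrl 2, 15 in cKO 1 and 53 in cKO 2. Per Mb these were 14.1, 0.599, 4.49 and 15.9 peaks, against 22.97, 2.82, 10.7 and 21.8 in the loci of all protein-coding genes built in the same way. The group means were 34.0 ± 26.9 peaks in cKO and 24.5 ± 31.8 in Ctrl (SD, n = 2 each), a difference of 9.5 that was −13 without Ctrl 2 and −9.5 without cKO 2. Of the peaks, 12, 0, 2 and 12 lay at promoters of the members, and 12, 1, 4 and 13 at promoters of other genes. Distal peaks, over 2 kb from every TSS, numbered 23, 1, 9 and 28, or 6.89, 0.300, 2.696 and 8.39 per Mb against 13.1, 1.69, 4.57 and 12.3 per Mb in all protein-coding loci.

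**Figure D5:**
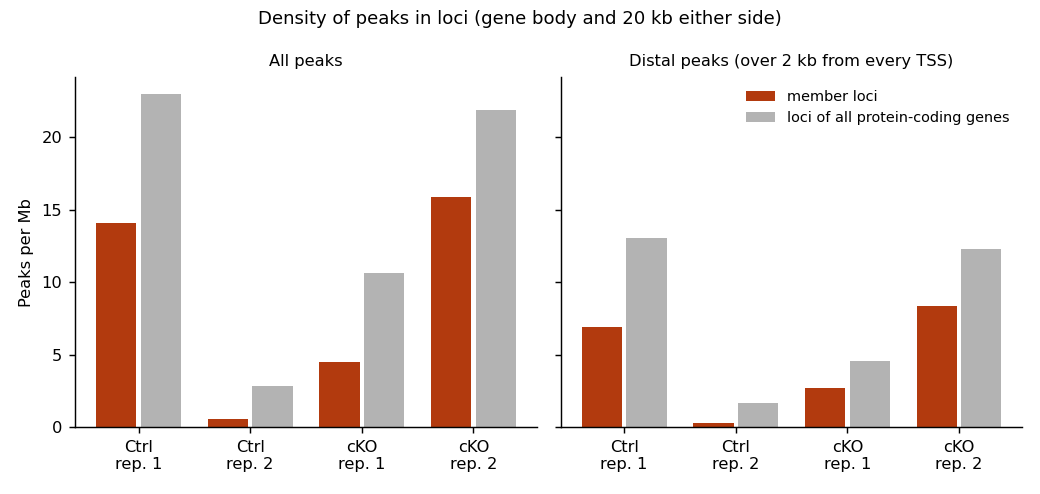
Peaks per Mb (bars) in each library within the 50 merged member loci (red) and within the loci of all protein-coding genes (grey), for all peaks (left) and for distal peaks (right). Member loci held fewer peaks per Mb in each library, with 14.1 against 22.97 in Ctrl 1 and 15.9 against 21.8 in cKO 2.

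No peak of any list lay in the loci of 13 members: Tbx1, Tbx4, Tbx20, Nkx2-5, Nkx3-2, Nkx6-2, Pax1, Six6, Irx4, Irx6, Pdx1, Cdx2 and Alx1. The share of 25.5% compares with 17.4% of all protein-coding genes, 1.93% of CpG island genes and 38.4% of genes without an island, whose loci had a median length of 57.4, 65.4 and 49.99 kb against 49.7 kb for the members. The 13 include factors of heart (Nkx2-5, Tbx20), pancreas (Pdx1), intestine (Cdx2) and retina (Six6). The median distance from a member's TSS to the nearest peak was 21007 bp in Ctrl 1, 144363 bp in Ctrl 2, 67799 bp in cKO 1 and 17896 bp in cKO 2. In the same order it was 103, 87242, 206 and 112 bp for CpG island genes. Over all protein-coding genes it was 306, 99670, 12540 and 427.5 bp.

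The most peaks in a single locus were at Pax5, the factor that commits cells to the B lymphocyte lineage, with 6 in Ctrl 1, 0 in Ctrl 2, 3 in cKO 1 and 6 in cKO 2. These counts are not divided by locus length, and the Pax5 gene (chr4:44524757-44710487) is longer than the median member locus of 49.7 kb. None of the peaks lay at a Pax5 promoter. The distal peaks merged into 5 regions, 4 inside the gene and 1 in its flank, and the strongest, inside the gene and 173385 bp from the nearest Pax5 TSS (chr4:44536760-44537185), rested on 46 fragments in Ctrl 1, 19 in cKO 1 and 33 in cKO 2. A further peak in Ctrl 1 and cKO 2 lay at the noncoding gene 5730488B01Rik.

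In other well-filled loci, some or most peaks lay at promoters of neighbouring genes. The locus of Tbx6 held 3, 0, 2 and 4 peaks, of which all but the Tbx6 promoter peak lay at the promoters of Ypel3, Ppp4c, and Aldoa with Fam57b. The locus of Pitx3, a factor of lens and dopamine neurons, held 2, 1, 1 and 2 peaks, and the peak present in all 4 lists lay at the promoter of Gbf1, on 107, 23, 42 and 97 fragments. The locus of Six4 held 3, 0, 0 and 2 peaks, of which 2 in Ctrl 1 and 1 in cKO 2 lay at its own promoter and 1 in each at the promoter of Mnat1. Tbx18, which acts in the epicardium and mural cells, held 3, 0, 0 and 2 peaks, of which 2 in Ctrl 1 and 1 in cKO 2 were distal and the others lay at the promoter of Gm37374.

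Over all members the distal peaks merged into 34 regions. Of these, 10 were held by Ctrl 1 and cKO 2, 6 by these lists and cKO 1, 10 by cKO 2 alone, 5 by Ctrl 1 alone, 1 by Ctrl 1 and cKO 1 (Pax8), 1 by the cKO lists alone (En1) and 1 by all 4 lists (Irx1). Over the 24810 distal regions of all protein-coding loci, merged in the same way, 28.9% were held by Ctrl 1 and cKO 2 (29.4% of the 34), 18.2% by these lists and cKO 1 (17.6%), 17.5% by cKO 2 alone (29.4%), 23.2% by Ctrl 1 alone (14.7%), 0.472% by Ctrl 1 and cKO 1 (2.94%), 0.838% by the cKO lists alone (2.94%) and 3.10% by all 4 lists (2.94%). The shares of 2.94% are single regions, and Ctrl 2 had only 1 distal peak in these loci. The En1 region (chr1:120627157-120627553) lay 24935 bp from the TSS, on 13 and 14 fragments. The 6 regions in 3 lists were at Alx4, Pax7, Tbx15 and 3 times at Pax5. In Tbx15, which acts in the skeleton and in adipocytes, the region lay inside the gene (chr3:99321271-99321774) on 27 fragments in Ctrl 1, 18 in cKO 1 and 23 in cKO 2. In Alx4, a homeodomain factor of limb and skull, it also lay inside the gene (chr2:93666303-93666942), on 17, 16 and 25 fragments. In Pax7, a factor of muscle satellite cells, it lay 73919 bp from the TSS within the gene (chr4:139758470-139759376), on 14, 14 and 20 fragments. These genes thus had an accessible site inside a gene whose promoter had no peak in any list, in a Ctrl library and in both cKO libraries.

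The 10 regions of Ctrl 1 and cKO 2 included a site 8188 bp from the TSS of Hand1, a bHLH factor of heart and placenta, on 9 fragments in each list, and a site 15893 bp from that of Myog, the bHLH factor of muscle differentiation, on 20 and 21 fragments. The regions seen in cKO 2 alone rested on 10 to 17 fragments and those of Ctrl 1 alone on 10 to 24. Among the former were 2 at Gata2, a factor of blood stem cells, on 11 and 16 fragments, inside the gene and in its flank.

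The region in all 4 lists, downstream of Irx1 and 17804 bp from its TSS (chr13:71945270-71946499), is a tandem repeat. Of its bases, 89.7% were identical to the base 24 bp further on, and the median over other spacings was 25.1%. No other of the 34 regions passed 70%, and the next highest was 40.9%. It is not soft-masked in the reference, so a filter on masked bases keeps it. Its peak ranked 881 of 7037 in Ctrl 2 on 36 fragments, but 29742 in Ctrl 1 on 13, 13331 in cKO 1 on 16 and 42528 in cKO 2 on 9. A stretch of 5 units around the summit in Ctrl 2 (chr13:71945813-71945932, plus strand) shows the repeat, which holds no CpG.
Irx1: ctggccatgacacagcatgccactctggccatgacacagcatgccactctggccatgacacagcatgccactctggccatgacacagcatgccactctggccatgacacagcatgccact
This is the only distal peak of Ctrl 2 in a member locus, and its scaled depth was 10.4-fold there against 4.98-fold to 8.01-fold in the other lists. Whether reads placed in the repeat belong there was not tested.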

How the data were processed

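After cutting a fixed number of bases from both ends of each read (Cutadapt), the authors mapped read pairs to mm10 using Bowtie2, discarded blacklisted, mitochondrial and duplicate reads, shifted alignments for the Tn5 offset and called peaks per library, unpooled, with MACS2 2.2.7.1. The deposited lists give a score (not used), fold (ratio to local background), −log10 p-value, −log10 q-value and summit. Each list has its own threshold, so fold and p-value served only within a list.

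TSSs came from GENCODE M21 (GRCm38.p6, the build of the lists, positions 1-based). CpG islands were computed without soft-masked bases (200 bp or longer, GC content of 50% or more, ratio of observed to expected CpG of 0.6 or more). Fragments at a summit were recovered from fold and p-value as whole numbers (within 0.01 on the −log10 scale for 99.99% of peaks or more in each list). Fragment totals were estimated as the lowest background depth of a list times the mouse genome size of MACS2, divided by the shortest peak width. That width stood in for fragment length. A gene's promoter percentile is the percent of 21938 protein-coding genes with a weaker best promoter peak, by −log10 p, in that library.

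Libraries were compared by an exact two-sided permutation test (6 assignments) for each gene with a promoter peak, adjusted by Benjamini-Hochberg over 13196 genes. Counts and means over the members have no test. The members and lists were chosen with earlier results of these data known. Named genes were those with the highest mean percentile (12), those separated between groups, and those with the most locus peaks. Scripts (Python 3.11.15, numpy 2.4.6, scipy 1.17.1) were tested on simulated data. Alternatives were another promoter width, peak overlap, nearest TSS, a stricter q-value, equal-size lists, repeat-masked peaks left out, mid-ranks, other locus sizes, stricter islands, a replicate block and each library left out.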

Additional observations from a re-analysis of the deposited data

How the results depend on the processing

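The low promoter share of the members was below CpG island genes in every setting run. Averaged over the libraries its difference from CpG island genes was −50.0 percentage points, and −62.2 to −44.8 points when each library was left out. In equal-size lists it was −30.45 points, and Irx5 was the only member that kept a promoter peak, in every list but Ctrl 2. The cKO minus Ctrl differences did not hold. When each library was left out they ranged from −4 to 7 genes with a promoter peak, −3.52 to 7.88 in mean percentile, −13 to 32 locus peaks, −4.5 to 17.5 distal peaks and −2.32 to 2.48 percentage points of island covered, and were below 0 without Ctrl 2 and without cKO 2. Without cKO 1, 10 members ranked higher, and without Ctrl 2, 2 ranked lower. Every member tested had a peak in cKO 2, where the percentile floor was above that of Ctrl 1. The 10 are therefore not read as opening in cKO. The count ranked higher in cKO ranged from 1 to 10 and the count ranked lower from 0 to 2, where 0 is fixed while Ctrl 2 is kept, since all members are at 0 there. With all libraries kept, distal peaks differed by −1 in equal-size lists, mean percentile by −6.19 with mid-ranks for genes with no peak, and island cover by −0.0149 with the stricter islands, and no member ranked higher (0) with a −log10 q-value of at least 5 or in equal-size lists, both of which drop the weak peaks. For the rest the cause was not tested.

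The differences of single genes other than Gata6, Tbx6 and Irx5 were likewise below 0 without Ctrl 2 and without cKO 2. That of Irx5 was below 0 without Ctrl 2 only. With mid-ranks, Tbx3 was at −7.77, Irx2 at −7.52, En2 at −7.09, Isl1 at −6.74, Pax9 at −6.55, Nkx6-1 at −6.34, and Six4 and Myf5 at −6.03. Gata3 moved to −10.8, while Gata6 (17.9), Irx5 (16.7) and Tbx6 (5.23) stayed above 0 at lower values. With each library left out, the difference ranged from −31.7 to 26.1 for Gata3, −28.6 to 29.1 for Tbx3, −23.4 to 26.7 for Nkx6-1, −24.8 to 27.7 for Pax9, −21.99 to 26.01 for Six4 and Myf5, −27.0 to 27.9 for Irx2, −5.44 to 84.6 for Irx5, −24.0 to 25.6 for En2 and −23.8 to 26.3 for Isl1. For Gata6 it stayed above 0, from 19.3 to 62.0, and for Tbx6 it ranged from 0 to 47.4.

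With a replicate block the difference was 1.5 genes with a promoter peak, as without it, because a mean of paired differences equals the difference of means, and 1 member was higher in both pairs. Replicate numbers share only a number (correlation of deviations 0.053 over 13196 genes). Recovered fragments limit the reading, since most member peaks rest on 10 to 28 fragments and a shallower opening would not be listed.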
